A study of Mus musculus with 31 samples.

Results

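The cytosolic ribosomal protein genes were followed in the whole brain of mice after an injection of oleic acid or of physiological serum. Members were the genes whose array name was Rpl or Rps followed by a number, with a trailing a, x or l where the name has one, or was Rplp0, Rplp1 or Rplp2. This rule found 81 of the 36161 gene names on the array, through 178 probes. The probe with the highest mean log2 signal over all arrays stood for each gene. Of the 81 members, 79 were bright enough to be tested (30 of the small and 49 of the large subunit), among 25146 genes tested in all. The 2 not tested were Rpl10l, above background on 2 arrays, and Rpl39l, above background on 3.

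The cytosolic ribosome translates messenger RNA in a small subunit, which holds the Rps proteins and decodes the message, and a large subunit, which holds the Rpl proteins and joins amino acids. Most ribosomal protein messengers begin with a terminal oligopyrimidine (TOP) stretch, a C followed by pyrimidines, through which the mTORC1 kinase sets how much of them is translated. In the brain these messengers are abundant in every cell type, and some are carried into dendrites and axons.

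The study concerned inflammation in the brain during acute lung injury, which intravenous oleic acid provokes. Each of 31 female C57BL/6 mice, 6 weeks old, was anaesthetized with xylazine and ketamine and received 200 µl through the tail vein, either serum or oleic acid (1.2 µl/g). Whole brains were taken 1, 1.5, 3, 4, 18 or 24 h later from 3 mice per treatment at 1 h and again at 1.5 h, from 2 serum and 3 oleic acid mice at each of 3, 4 and 24 h, and from 2 mice per treatment at 18 h. Each brain was hybridised to 1 single-colour Agilent array; the labels name no pooling and no uninjected mice, so anaesthesia and injection were common to all groups.

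Values are log2 Cy3 signals minus the array's 75th percentile of non-control spots, and differences are oleic acid minus serum, with the standard error (SE) after ±. Tests are limma's moderated tests with Benjamini-Hochberg adjustment over all 25146 genes, and a gene passed at an adjusted p under 0.05. On an array, 53.0% to 75.8% of spots were well above background (median 61.1%), and the 75th percentile intensity was 306 to 813. No spot was saturated. Markers of neurons, astrocytes, oligodendrocytes, microglia and endothelium were above background on all 31 arrays, while Barhl2, on the list of cerebellar granule cells, was above background on 0. Arrays came from 5 slides: the first held all 1 h brains and serum 1.5 h replicates 1 and 2, and the third held oleic acid 1.5 h replicates 2 and 3, both serum 3 h brains and oleic acid 3 h replicates 1 and 2. The second held serum 1.5 h replicate 3, oleic acid 1.5 h replicate 1 and serum 24 h replicate 2. The fourth held oleic acid 3 h replicate 3, all 4 h brains and both serum 18 h brains, and the fifth held both oleic acid 18 h brains, serum 24 h replicate 1 and the oleic acid 24 h brains. In bulk tissue, fewer cells of a type and less RNA per cell cannot be told apart.

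Oleic acid mice had lower median ribosomal protein signals than serum mice at 5 of the 6 times, and higher ones at 3 h, by small amounts. No member passed the test at any time. The median member differed by -0.03 at 1 h, -0.07 at 1.5 h, 0.12 at 3 h, -0.11 at 4 h, -0.24 at 18 h and -0.13 at 24 h. Over all genes tested the same medians were 0.00, -0.01, 0.02, 0.01, -0.04 and -0.04. The sign of the members' median turned at 1 h with array median scaling (0.00) and at 24 h after quantile normalization (0.01). Leaving out 1 array also turned it at 1 h (up to 0.0070), 4 h (up to 0.0077) and 24 h (up to 0.0026). The small and large subunits gave near values at 18 h, with medians of -0.22 over 30 genes and -0.24 over 49.

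**Figure D1:**
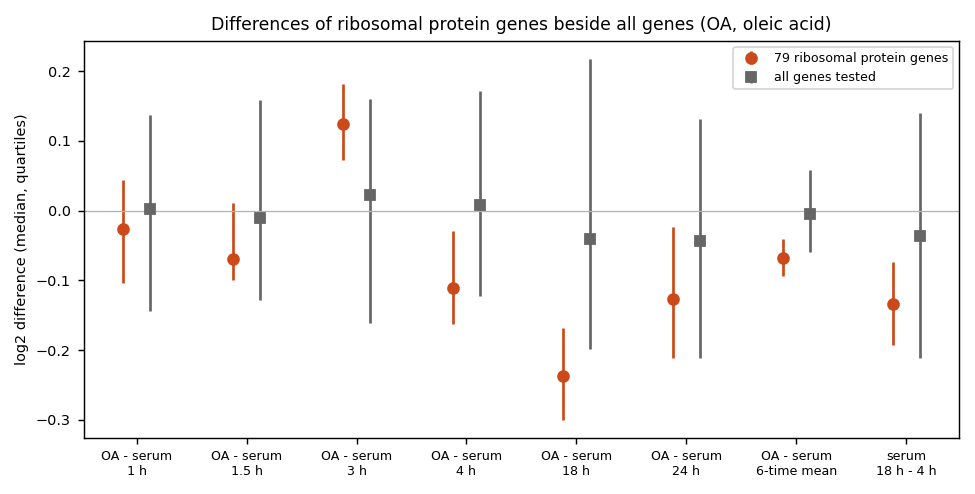
Log2 difference (vertical axis) in each of the 8 comparisons (horizontal axis: oleic acid, OA, minus serum at 6 times and as their mean, and serum at 18 h minus 4 h). Points are medians and lines run between the quartiles over the 79 tested members (circles) or all 25146 genes tested (squares); the members' median is 0.12 at 3 h and -0.24 at 18 h, where that of all genes is -0.04.

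At 18 h the signals of oleic acid mice were lower for 78 of the 79 members, where 54.9% of all genes tested were lower. In 63 members (79.7%) both oleic acid mice lay below both serum mice, against 29.6% of all genes tested. By unadjusted p under 0.05, 12 members (15.2%) were lower, against 7.28% of all genes in either direction. None passed after adjustment (0% of all genes did too), and the smallest adjusted p of a member was 0.671 with limma. All serum 18 h arrays were on the fourth slide and all oleic acid 18 h arrays on the fifth, so treatment cannot be told apart from slide in this comparison.

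The size of the 18 h difference moved with the scaling. The median was -0.37 with array median scaling, where the median of all genes moved to -0.18, and -0.18 with normexp background correction. It was -0.05 after quantile normalization and -0.04 in the deposited values, with 52 and 49 members lower. Relative to the median of all genes, the values were -0.20 by 75th percentile, -0.20 by array median, -0.11 by normexp, -0.03 by quantile and -0.03 in the deposited values. With slide as a fixed block, which reads the slides through the other groups, the median was -0.14 and 49 members were lower.

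Several marker lists also differed between the 18 h groups. The summed marker signal of endothelium was 4.70 to 4.97 in serum and 4.36 to 4.41 in oleic acid mice, that of microglia 5.10 to 5.45 and 4.82 to 4.95, and that of astrocytes 5.33 to 5.36 and 5.25 to 5.30. Neutrophil markers lay at 2.41 to 3.16 in serum and 0.93 to 2.10 in oleic acid mice, and cerebellar granule cell markers at 1.07 to 3.93 and 4.06 to 4.26. Liver markers (3.35 to 3.40 and 3.00 to 3.05) and pituitary markers (0.83 to 0.98 and 0.64 to 0.68) did not overlap either. Of all single genes tested, 29.6% lay apart at 18 h with oleic acid lower and 22.9% with it higher. No tested gene of these marker lists passed. All 5 genes of each of these lists were on the array, and neuron markers overlapped at 8.05 to 8.07 and 8.02 to 8.05. The sums of oligodendrocyte, erythroid cell, lymphocyte, choroid plexus and lung markers overlapped too. A sum follows its brightest genes. Gene by gene, 3 astrocyte markers were lower and 2 higher, and of 4 pituitary markers tested 2 were lower and 2 higher. Endothelium, microglia, neutrophil and liver markers were all lower. The part of these markers in the ribosomal protein values was not tested.

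Among small-subunit genes at 18 h, Rps14, a protein of the small subunit's platform, lay at 8.09 and 7.95 in serum and 7.56 and 7.65 in oleic acid mice, a difference of -0.41 ± 0.22. Rps12 lay at 6.74 and 6.72 against 6.33 and 6.46, and Rps25, which some viral and cellular messengers need for internal initiation, at 5.64 and 5.51 against 5.22 and 5.26. In both genes every oleic acid mouse was below every serum mouse. None of these genes passed.

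Other small-subunit genes were nearer to 0. Rps6, whose protein is phosphorylated by S6 kinase downstream of mTORC1, lay at 6.20 and 6.16 in serum and 6.16 and 6.04 in oleic acid mice, a difference of -0.08 ± 0.12 with overlap. Rps19, the gene most often mutated in Diamond-Blackfan anaemia, differed by -0.14 ± 0.17, Rps3, which lines the messenger entry channel, by -0.17 ± 0.18, and Rps27a, which is made as a fusion to ubiquitin, by -0.21 ± 0.14. Rps9 was among those nearest to 0, at -0.09. None of these passed.

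Rps21 was the only tested member higher in oleic acid mice at 18 h. Rps21, a small protein of the small subunit, lay at 1.78 and 2.13 in the serum mice and 2.34 and 2.45 in the oleic acid mice. The groups did not overlap, and the difference of 0.44 ± 0.27 had a 95% interval of -0.13 to 1.01. Rps21 was read by 1 probe, above background on all 31 arrays, with a mean signal of 2.30. On the fourth slide, which held the serum 18 h arrays, its mean was 1.98, against 2.41 on the other slides. Under the scalings, the other corrections and both slide blocks the 18 h difference stayed between 0.30 and 0.52, never past the adjusted threshold.

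Among large-subunit genes at 18 h, Rpl37a, a zinc-binding protein, had the lowest difference. Rpl37a lay at 7.52 and 7.33 in serum and 6.97 and 6.98 in oleic acid mice, a difference of -0.45 ± 0.18 (95% interval -0.82 to -0.09). Rpl24, which takes part in a bridge between the subunits, lay at 6.84 and 6.85 in serum and 6.41 and 6.45 in oleic acid mice, a difference of -0.41 ± 0.19. Both genes had all oleic acid mice below all serum mice. Rpl12, at the base of the stalk that binds elongation factors, lay at 6.52 and 6.32 against 6.00 and 6.09, a difference of -0.37 ± 0.16. Rplp0, the scaffold of that stalk, lay at 6.88 and 6.70 against 6.35 and 6.53, a difference of -0.35 ± 0.17. Its partner Rplp1 lay at 7.06 and 6.74 against 6.69 and 6.62, and Rplp2 at 7.01 and 6.85 against 6.71 and 6.69. The stalk genes were thus lower in every oleic acid mouse than in any serum mouse, as were 79.7% of the members and 29.6% of all genes tested.

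Other large-subunit genes with known roles were also lower without passing. Rpl5 and Rpl11 form, with the smallest large-subunit RNA, the particle that binds Mdm2 and stabilises p53. Rpl5 lay at 3.68 and 3.65 in serum and 3.54 and 3.44 in oleic acid mice, a difference of -0.18 ± 0.11, and Rpl11 differed by -0.29 ± 0.16. Rpl38, which some homeobox messengers need for their translation, differed by -0.33 ± 0.17. Rpl28 differed by -0.35 ± 0.16 and Rpl10, which joins the large subunit late in its assembly, by -0.28 ± 0.13.

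**Figure D2:**
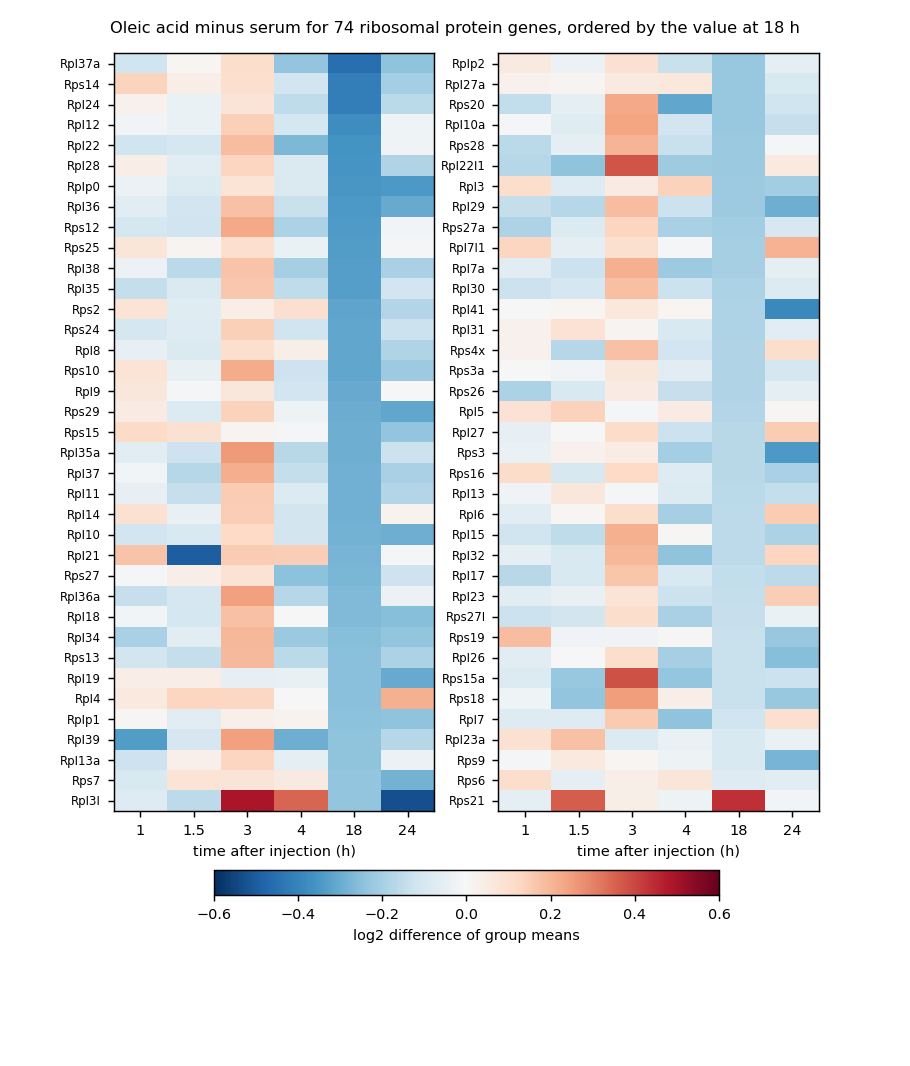
Colour map of the oleic acid minus serum difference of group means (log2, colour bar from blue for lower to red for higher) for 74 of the 79 tested members (rows, in 2 columns, ordered by the value at 18 h) at the 6 times after injection (h). At 18 h the rows run from Rpl37a at -0.45 to Rps21 at 0.44, the only tested member above 0, while most are above 0 at 3 h.

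The early times gave smaller differences. At 1 h, 51 members were lower and 28 higher, against 49.6% of all genes lower and 50.4% higher. The groups lay apart with oleic acid lower in 8 members (10.1%, against 5.79% of all genes) and higher in 1 (1.27%, against 4.1%), and 1 member (1.27%) had an unadjusted p under 0.05 against 4.84% of all genes. This was Rpl39, a small protein of the exit tunnel, at 5.00, 4.97 and 4.88 in serum and 4.70, 4.89 and 4.25 in oleic acid mice. The groups overlapped, and the difference was -0.34 ± 0.16. Rpl34, Rps26, Rps27a and Rpl22l1 followed at -0.20, -0.19, -0.19 and -0.17. At the other end Rps19 differed by 0.19 and Rpl21 by 0.17, followed by Rps14 and Rpl7l1 at 0.13. The members' median at 1 h ran from -0.07 without oleic acid replicate 3 to 0.01 without serum replicate 1, where 35 members were lower.

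At 1.5 h, 57 members were lower, against 52.2% of all genes, and 22 higher, against 47.8%. The groups lay apart in 0 members with oleic acid lower (6.32% of all genes) and in 1 with it higher (1.27%, against 4.29%), and 1 had an unadjusted p under 0.05 (5.27% of all genes). Rpl21 lay at -1.01, -1.15 and -0.06 in serum and -1.32, -1.23 and -1.14 in oleic acid mice, a difference of -0.50 ± 0.20. Serum replicate 3 stood far above the other 5 brains, among them oleic acid replicate 1 from the same slide. Rpl22l1 and Rps18 at -0.24, Rps15a at -0.23 and Rpl29 at -0.17 were next. Rps21 lay at 2.09, 2.30 and 2.90 in serum and 2.68, 2.91 and 2.79 in oleic acid mice, with overlap, a difference of 0.36 ± 0.22. The median of the members at 1.5 h was -0.22 with slide as a fixed block, and ran from -0.12 without oleic acid replicate 2 to -0.01 without oleic acid replicate 1, where 43 members were lower.

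At 3 h, oleic acid mice were higher for 73 of 79 members, against 53.8% of all genes, and lower for 6, against 46.2%. In 21 members (26.6%) all oleic acid mice lay above all serum mice, against 10.1% of all genes, in 0 they lay below them (7.63% of all genes), and 4 (5.06%) had an unadjusted p under 0.05 against 4.86%. Rps15a, a small-subunit protein, lay at 4.33 and 4.65 in serum and 4.88, 4.70 and 5.02 in oleic acid mice, without overlap, a difference of 0.38 ± 0.15. Rpl22l1, the paralog of Rpl22, lay at 4.64 and 4.83 against 5.04, 4.93 and 5.37, also without overlap, a difference of 0.38 ± 0.15. Rpl35a differed by 0.25 ± 0.12 and Rps18 by 0.25. None passed, and low values were those of Rpl23a at -0.08 and Rpl19 at -0.05. The oleic acid 3 h replicate 3 was on the fourth slide and the other 3 h brains on the third. On the third slide alone (without that replicate) the median was 0.08, with 16 members lower, and without oleic acid replicate 2 it was 0.19. It was above 0 under each scaling run.

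At 4 h, 63 members were lower, against 48.6% of all genes. In 11 (13.9%) the groups lay apart with oleic acid lower, against 8.69% of all genes, in 1 (1.27%) with oleic acid higher, against 9.44%, and 1 had an unadjusted p under 0.05 (3.02% of all genes). Only 1 gene in all passed at this time (0.00398%), and it was no member. Rps20 lay at 6.97 and 7.04 in serum and 6.52, 6.80 and 6.75 in oleic acid mice, without overlap, a difference of -0.31 ± 0.15. Rpl39 at -0.29 and Rpl22 at -0.27 followed, with Rps27 at -0.25 and Rpl7 at -0.24, while Rpl3l differed by 0.35, Rpl21 by 0.15, Rpl3 by 0.14 and Rps2 by 0.10. Without serum replicate 2 the median was 0.01 in place of -0.11, with 38 members lower. Without serum replicate 1 it was -0.20, without oleic acid replicate 1 -0.05 and without oleic acid replicate 3 -0.17.

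At 24 h, 66 members were lower, against 57.2% of all genes, and 13 (16.5%) had all oleic acid mice below all serum mice, against 16.6%. By unadjusted p under 0.05, 7 members were lower (8.86%, against 6.57% of all genes). Rpl41, which encodes a very short protein, lay at 8.06 and 7.98 in serum and 7.74, 7.74 and 7.42 in oleic acid mice, a difference of -0.39 ± 0.18. Rps3 lay at 5.38 and 4.93 against 5.12, 4.79 and 4.51, with overlap, and Rplp0 at 6.96 and 6.48 against 6.57, 6.45 and 6.11, also with overlap. Rps29 differed by -0.31. On the other side Rpl4 and Rpl7l1 differed by 0.21. Rpl4, which reaches into the exit tunnel, lay at 3.99 and 4.22 in serum and 4.34, 4.35 and 4.29 in oleic acid mice, without overlap. Without oleic acid 24 h replicate 3, the brain with the lowest ribosomal protein signal of all, the median was 0.00 in place of -0.13. It was -0.05 without serum replicate 1 and -0.19 without oleic acid replicate 2. Among the slide 5 brains alone, which leaves out serum replicate 2, it was -0.20, and without the 3 brains with high pituitary signal -0.07.

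Averaged over the 6 times, 72 of 79 members were lower in oleic acid mice, against 52.5% of all genes, with a median of -0.07 against -0.01 over all genes. None passed (0% of all genes), and 7 members (8.86%) had an unadjusted p under 0.05 against 4.55%. The lowest were Rpl37a at -0.16 ± 0.06, Rpl39 at -0.15, Rplp0 at -0.14, Rpl36 at -0.13 and Rpl29 at -0.13, and the highest Rps21 at 0.12 and Rpl4 at 0.05. After quantile normalization and in the deposited values the median was -0.01 in each case, with 47 members lower in both.

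Time after injection was tested apart from treatment, although times and slides overlap in large part. In serum mice 1 member passed (1.27%), against 10.5% of all genes, and 15 members had an unadjusted p under 0.05 (19%, against 34.7%). In oleic acid mice 0 passed, against 7.09%, with 14 at an unadjusted p under 0.05 (17.7%, against 26.3% of all genes). For the difference of the oleic acid effect between times 0 members and 0 genes passed, and 2 members had an unadjusted p under 0.05 (2.53%, against 5.43%).

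The count of 1 in serum mice was 0 without slide 4, with slide as a fixed or a random block, with the mean of each gene's probes, with array median scaling, without the filter on dim probes, and from the serum mice alone. It was 3 with normexp background correction and in the deposited values, and 2 with trend and robust eBayes. It was 0 without either serum 3 h, 4 h or 18 h brain, without replicate 1 or 2 of the serum mice at 1.5 h, and without replicate 2 or 3 of those at 1 h, and it was 2 without replicate 1 of those at 1 h. Rpl27a, a large-subunit protein, had the lowest adjusted p for time in oleic acid mice (0.0673, limma F-test). Its group means were 6.00, 5.98, 6.02, 6.31, 5.91 and 5.98 in the order of the times. All 4 h brains were on the fourth slide, where Rpl27a had a mean of 6.23 against 5.98 on the other slides. Time and slide cannot be told apart in this value.

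**Figure D3:**
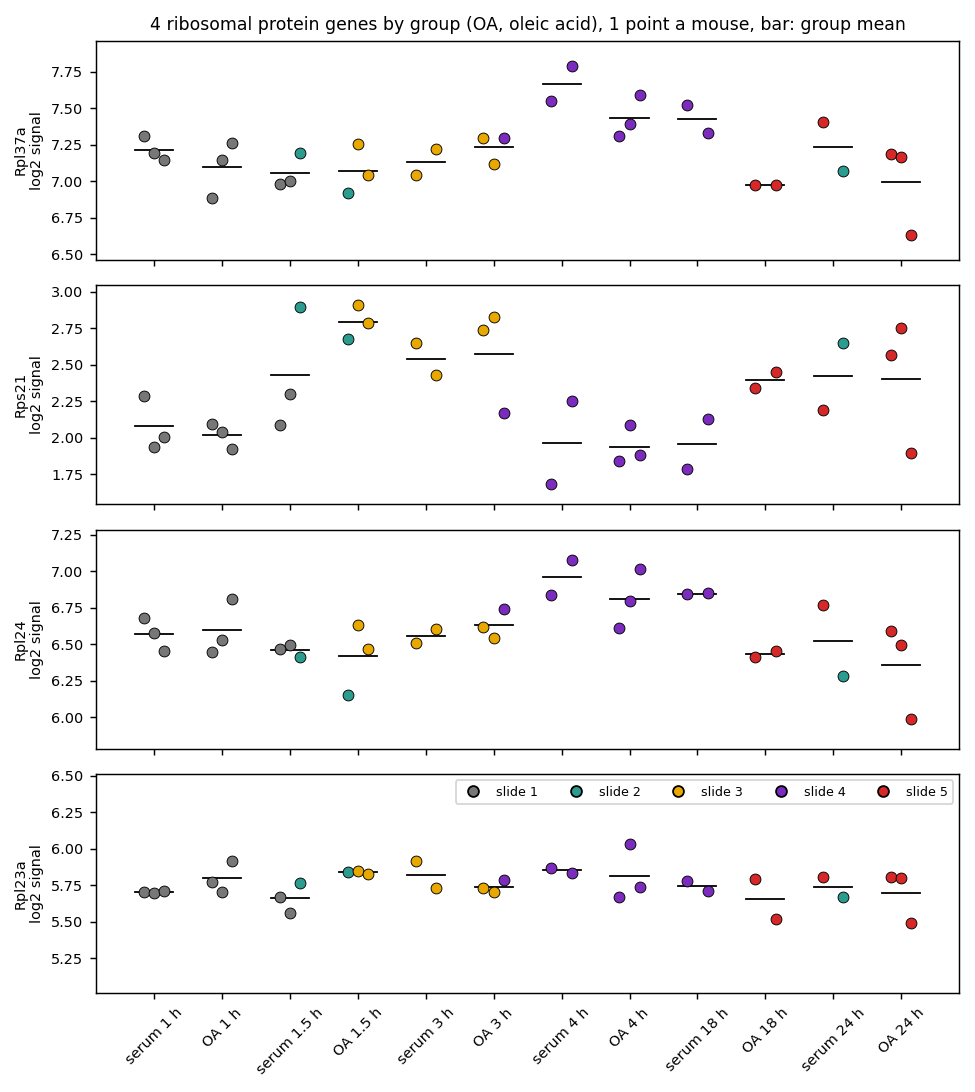
Log2 signal relative to the array's 75th percentile (vertical axis) of Rpl37a, Rps21, Rpl24 and Rpl23a in the 12 groups (horizontal axis; OA, oleic acid), with 1 point per mouse coloured by slide and a bar at the group mean. At 18 h Rpl37a is at 7.52 and 7.33 in serum mice on slide 4 and 6.97 and 6.98 in oleic acid mice on slide 5, Rps21 is at 2.25 or below on all slide 4 arrays, and Rpl23a, the steadiest member, has an SD of 0.114.

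Member signals on the fourth slide stood above those of the other slides. On its 8 arrays, 77 of 79 members had a higher mean than on the other 23, by a median of 0.22, against 60.1% of all genes and a median of 0.07. Large gaps were those of Rpl3l at 0.42, Rps14 at 0.39 and Rpl37a at 0.37, and the lowest Rps21 at -0.43 and Rps15a at -0.03. Rps21 lay at 1.68 to 2.25 on slide 4 and 1.90 to 2.91 elsewhere. Slide accounted for 49.4% of the spread of the arrays' member medians, time for 36.4%, treatment for 4.51% and the 12 groups for 57.3%. These shares are a description, since slides and groups overlap and the factors have unequal numbers of levels.

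Only 1 group, the oleic acid mice at 3 h, held brains on slide 4 and on another slide. Its replicate 3 on slide 4 was above replicates 1 and 2 for 74 of 79 members, by a median of 0.18 (57.7% of all genes, median 0.06), with Rps21 differing by -0.62. The 3 other groups that spanned slides set slide 2 against slide 1, 3 or 5 and went both ways. In serum mice at 1.5 h, replicate 3 on slide 2 was above the others for 62 members, by 0.10 (48.5% of all genes), and in oleic acid mice at 1.5 h replicate 1 on slide 2 for 24 (47% of all genes). Serum 24 h replicate 2, on slide 2, was above replicate 1 for 16 members, also against 47% of all genes, with a median difference of -0.14.

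Serum mice at 18 h and 4 h lay on the fourth slide together. At 18 h, 73 of 79 members were lower than at 4 h, against 56% of all genes, by a median of -0.13 (-0.04 over all genes). None passed, against 0.927% of all genes, and 0 members had an unadjusted p under 0.05 against 10.7%. In 33 members (41.8%) both 18 h brains were below both 4 h brains, against 23.3%. The lowest were Rpl31 at -0.27, and Rpl29, Rpl38 and Rps26 at -0.26. Rpl7l1 differed by 0.27, Rpl3l by 0.14 and Rpl21 by 0.13. The median was -0.04, with 50 members lower, without serum 4 h replicate 2, -0.23 without serum 4 h replicate 1 and -0.09 without serum 18 h replicate 2.

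**Figure D4:**
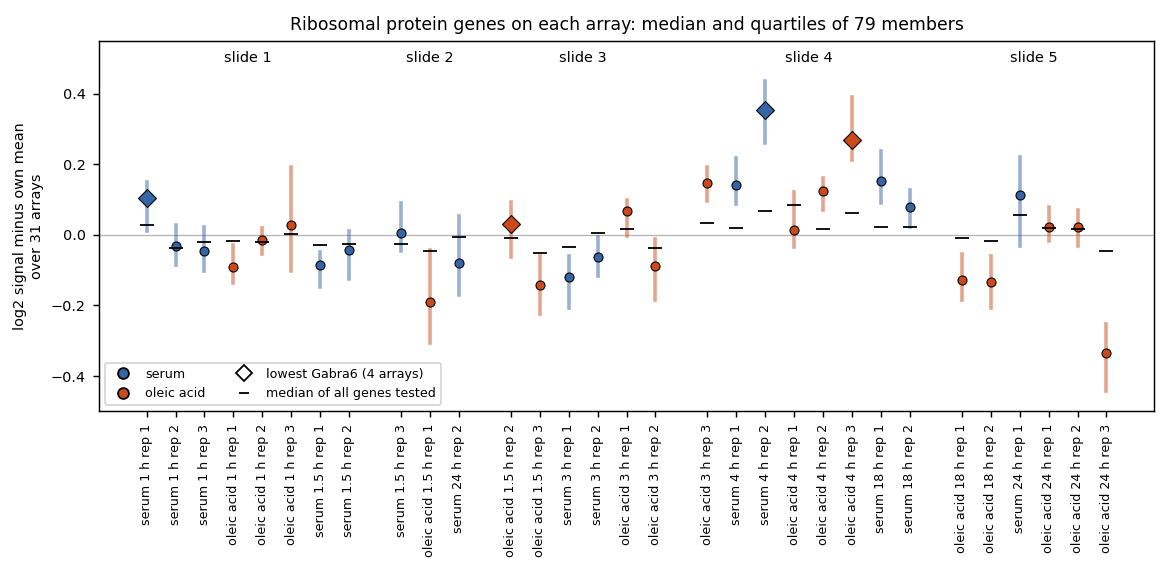
Log2 signal minus each gene's own mean over the 31 arrays (vertical axis) for each array, grouped by slide: points are the median and lines the quartiles over the 79 tested members, coloured by treatment, short bars are the median of all genes tested, and diamonds mark the 4 arrays with the lowest Gabra6. The members' medians on the 8 arrays of slide 4 run from 0.01 to 0.35 and on the other 23 from -0.33 to 0.11.

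The members varied together across brains. Over 3081 pairs of members, the median correlation over the 31 arrays was 0.59 (quartiles 0.38 and 0.75), and 2928 pairs were above 0. After each group's mean was taken off, the median was 0.54 with 2931 above 0. These arrays share slide, scaling and the cell mixture of each brain. The median between members was 0.81 with array median scaling, 0.56 with normexp, and 0.16 after quantile normalization and in the deposited values.

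Rpl37a followed the median of the other members most closely, at 0.955, and Rpl35 at 0.947. Rps21 went the other way, at -0.29, and Rpl7l1 (0.21), Rpl4 (0.23), Rpl26 (0.28) and Rps15a (0.30) were weakly related to it. The gene that is no member with the highest correlation with the members' median, among named genes, was Eif3k, a subunit of the initiation factor that binds the small subunit, at 0.95. Atpif1, which inhibits ATP synthase, and Mif, a small cytokine, followed at 0.94. The most opposed named genes were Lgr4 at -0.78, and Grm4, a glutamate receptor of cerebellar granule cells, and Arl5a at -0.77.

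The 4 brains with the least cerebellum signal stood at the top of their groups, while brains with intermediate signal went both ways. In the 4 brains with the lowest Gabra6, a marker of cerebellar granule cells, the members' median, relative to each gene's own mean, was 0.10 (replicate 1 of the serum mice at 1 h), 0.35 (replicate 2 of the serum mice at 4 h), 0.03 (replicate 2 of the oleic acid mice at 1.5 h) and 0.27 (replicate 3 of the oleic acid mice at 4 h). Each was the highest of its group, as were 3 of the 4 after quantile normalization. In the same order, 62, 72, 57 and 69 members were the highest of their group there, against 46.3%, 56.9%, 36.0% and 40.1% of all genes. The median of all genes was 0.03, 0.07, -0.01 and 0.06, also the highest of its group except in the last. The Gabra6 signals of these 4 brains were -7.50, -7.31, -7.59 and -6.12 in the same order. Replicate 1 of the oleic acid mice at 1.5 h, with Gabra6 at -1.44 against 1.06 in replicate 3, had the lowest member median of its group, -0.19. Replicate 1 of the serum mice at 3 h, with Gabra6 at -1.60 against 1.67 in replicate 2, was the lower of its pair, at -0.12 against -0.06. Replicate 3 of the serum mice at 1.5 h, with Gabra6 at -3.94, had the highest member median of its group, 0.004. So did replicate 1 of the serum mice at 18 h (Gabra6 -2.85, median 0.15) and replicate 3 of the oleic acid mice at 3 h (-1.39, 0.15). The relation was chosen after these values were seen and was not tested.

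Most members varied little. Their median standard deviation (SD) over the 31 arrays was 0.179, against 0.270 for all genes tested, and 18.5% of all genes had a lower SD than that. The steadiest were Rpl23a at 0.114, which lies where the nascent chain leaves the ribosome, Rps3a at 0.116, Rpl5 at 0.121, Rps6 at 0.122 and Rpl30 at 0.124. Among the most variable were Rps21 at 0.363, Rpl3l at 0.318, Rpl21 at 0.266 and Rps15 at 0.260. Rps21 ranged from 1.68 to 2.91, with the 1.5 h brains of oleic acid mice high at 2.68, 2.91 and 2.79 and the 4 h brains of serum mice low at 1.68 and 2.25.

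**Figure D5:**
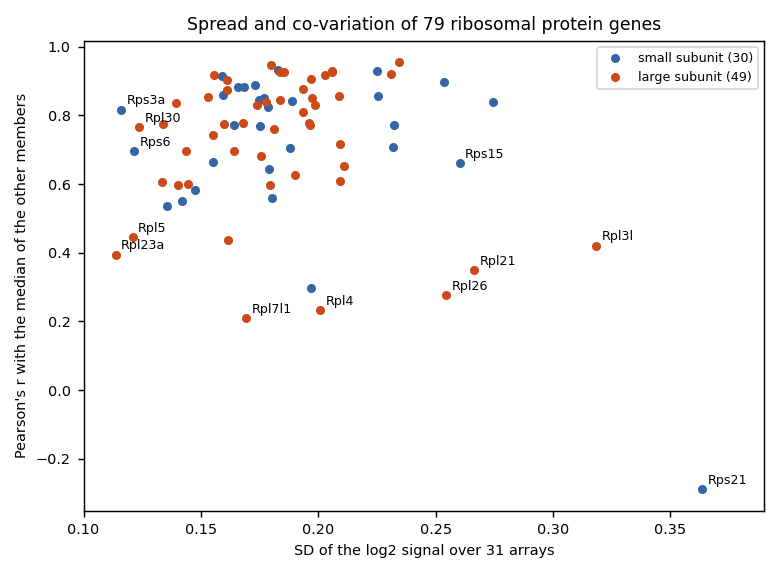
Pearson's correlation with the median of the other members (vertical axis) against the SD of the log2 signal over the 31 arrays (horizontal axis), with 1 point for each of the 30 small-subunit and 49 large-subunit members tested. Rps21 stands apart at an SD of 0.363 and a correlation of -0.29.

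Probes of 1 gene did not always move alike. Of 175 probes past the filter, 96 were not the one that stood for the gene, over 54 members, and their median correlation with it was 0.70, with 8 below 0. At 18 h, 82 of these 96 were lower in oleic acid mice, and in 44 of 54 members all probes had the same sign. The probe for Rps27 was annotated on chromosome 9 although the gene is on chromosome 3, and that for Rps29 on chromosome 2 although the gene is on chromosome 12. Ribosomal protein genes have many near-identical processed copies, so these probes may read more than 1 locus.

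Signals of the paralogs and tissue-restricted copies differed widely. Rpl3l is the striated-muscle counterpart of Rpl3. Its signal ranged from -4.98 to -3.68 over the 31 arrays and was above background on 29. At 24 h it lay at -3.80 and -4.16 in serum and -4.21, -4.74 and -4.57 in oleic acid mice, a difference of -0.53 ± 0.21, and at 3 h at -4.88 and -4.75 against -4.41, -4.38 and -4.19, a difference of 0.49 ± 0.21. Neither passed, and the sign was opposite at these times. Rpl22l1, the paralog of Rpl22, ranged from 4.47 to 5.37, with a mean of 4.96 against 4.34 for Rpl22. These are signals of different probes and do not rank the genes by abundance. Rpl7l1 ranged from -2.02 to -1.32 and Rps27l, a p53 target, from 2.41 to 2.90. The 60-base probes of Rpl3 and Rpl3l, shown because they read related genes, share a longest run of 6 bases, in capitals. The probes were compared only with each other and not with the other gene's messenger. Whether they separate the 2 genes was thus not tested. The probes were annotated on mm9, in spans longer than the probes themselves, at chr15:79908489-79908772 (minus strand) and chr17:24872413-24872681 (plus strand).
Rpl3: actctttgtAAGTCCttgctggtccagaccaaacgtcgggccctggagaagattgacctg
Rpl3l: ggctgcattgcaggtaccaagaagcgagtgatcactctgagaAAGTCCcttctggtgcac

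Promoters were searched because these genes varied together. RefSeq windows on GRCm38.p6, from 250 bases before to 50 after the start, were found for 61 of the 81 members (73 windows), among 32851 windows of all genes. On the sense strand, in the last 70 bases, CTTTCC was found in 19 member windows (26.0%, against 3.24% of all windows) and CTTTTC in 9 (12.3%, against 2.44%). TTCCGG was found there in 8 (10.96%, against 3.32%). Over all 300 bases and both strands, CCGGAAG was found in 26 (35.6%, against 8.86%), AAGATGG in 12 (16.4%, against 6.34%), GGGCGG in 43 (58.9%, against 35.7%) and TATAAA in 7 (9.59%, against 13.6%). The reverse complement of CCGGAAG contains TTCCGG, so these matches can overlap. A match is a description of letters and not a binding site.

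The windows from 45 bases before to 15 after the start are shown for genes that the values turn on, with the letters searched in capitals. Near the start, Rpl12 and Rpl27a carry CTTTTC, and Rpl38 and Rpl35 carry CTTTCC. Rps6 and Rpl37a carry none of the letters searched within these 60 bases. Rps21 carries the CCGGAAG letters, and Rpl22l1 the TATAAA letters on both strands. In order they lie at chr2:32961667-32961726 (plus), chr7:109519150-109519209 (plus), chr11:114668535-114668594 (plus), chr2:39005117-39005176 (minus), chr4:86857353-86857412 (minus), chr1:72711215-72711274 (plus), chr2:180257334-180257393 (plus) and chr3:28805463-28805522 (plus).
Rpl12: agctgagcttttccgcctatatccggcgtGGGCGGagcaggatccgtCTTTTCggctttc
Rpl27a: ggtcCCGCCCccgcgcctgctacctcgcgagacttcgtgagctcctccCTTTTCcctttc
Rpl38: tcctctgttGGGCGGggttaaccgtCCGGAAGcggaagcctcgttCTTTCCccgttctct
Rpl35: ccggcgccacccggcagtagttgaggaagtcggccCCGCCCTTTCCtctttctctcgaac
Rps6: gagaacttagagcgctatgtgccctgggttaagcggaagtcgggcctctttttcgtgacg
Rpl37a: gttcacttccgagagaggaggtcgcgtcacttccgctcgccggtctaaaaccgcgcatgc
Rps21: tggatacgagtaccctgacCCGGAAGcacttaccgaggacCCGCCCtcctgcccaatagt
Rpl22l1: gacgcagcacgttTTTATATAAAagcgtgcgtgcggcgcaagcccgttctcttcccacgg
At 18 h the oleic acid minus serum differences of these genes were -0.37 for Rpl12, -0.33 for Rpl38 and Rpl35, -0.08 for Rps6, -0.45 for Rpl37a, 0.44 for Rps21, -0.23 for Rpl27a and -0.22 for Rpl22l1. The pair without the searched letters here, Rps6 and Rpl37a, held both a small and a large difference. The letters searched do not cover every pyrimidine stretch. At the Rps6 start a C is followed by pyrimidines, and near the Rpl22l1 start there are pyrimidines too.

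Related gene lists were read beside the members. The 5 ribosomal protein genes outside the naming rule, Rpsa, Fau, Gnb2l1 and Rpl36al among them, were all lower at 18 h, by a median of -0.33, with Rpsa, a laminin-binding protein of the small subunit, at -0.42 and Fau at -0.38. Translation factors with a TOP start were lower in 14 of 18, by a median of -0.21, with the elongation factors Eef1g at -0.41 and Eef1a1 at -0.38. Ribosome biogenesis genes were lower in 35 of 41 (median -0.16), mTORC1 and TOP control genes in 18 of 25 (-0.09), mitochondrial ribosomal protein genes in 71 of 74 (-0.15) and respiratory chain and ATP synthase genes in 73 of 80 (-0.19), where 54.9% of all genes were lower. No gene of these lists passed in any oleic acid comparison.

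At 3 h the median of each of these 6 lists was above 0, where 53.8% of all genes were higher. Of the 5 genes outside the naming rule 5 were higher, of the TOP factors 14 of 18, of the biogenesis genes 30 of 41, of the mTORC1 and TOP control genes 16 of 25, of the mitochondrial ribosomal protein genes 63 of 74 and of the respiratory chain genes 69 of 80, with medians of 0.11, 0.08, 0.12, 0.09, 0.10 and 0.11. Time in serum mice was called for Rpl36al outside the rule, for Eif3m and Hnrnpa1 among the TOP factors, and for 6 of 41 biogenesis genes, 3 of 25 mTORC1 genes, 5 of 74 mitochondrial and 4 of 80 respiratory chain genes, where 10.5% of all genes passed. Among the mTORC1 genes, Mycn, a transcription factor that drives ribosome biogenesis, was higher in serum mice at 18 h than at 4 h by 1.14 ± 0.23 (adjusted p = 0.0141, limma).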

How the data were processed

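The deposited array files hold, per the file headers, Cy3 intensity for 62976 spots from Agilent Feature Extraction 10.5.1.1, and the processed intensity used here is background-subtracted with no scaling between arrays. The value table deposited by the authors holds log2 values whose sorted columns are nearly identical, as quantile normalization gives, and served as an alternative. Spot flags (0 or 1) came from the same deposited files.

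Processed intensities were log2-transformed and each array's 75th percentile of non-control spots was subtracted. Spots marked non-uniform (no array had more than 107) were left out, and spots of a probe were averaged. A probe was kept if all arrays of 1 or more of the 12 groups had it well above background and all 31 arrays had a value. A model of 12 group means was fitted with limma 3.58.1 in R 4.3.3 (19 residual degrees of freedom) and tested on simulated data. A summed marker signal is the log2 of the markers' summed relative intensities. The number of arrays limits the precision.

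The members and lists were chosen with earlier results of these data known. Members named with values were, in each comparison, the 5 highest and the 5 lowest differences, the 5 largest and the 5 smallest SDs, all that passed, paralogs, and a set with known roles. The nearest genes and the 2 most extreme list genes per comparison could also be named. Some genes of these groups are not reported here. Equal replicate numbers did not mark a shared litter or day in the labels. Probe positions are mm9 and promoters are RefSeq's on GRCm38.p6. Alternatives covered scaling, background correction, the deposited values, filters, probe choice, slide, replicate number, eBayes options and left-out arrays.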

Additional observations from a re-analysis of the deposited data

How the results depend on the processing

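The count of 0 members passing any oleic acid comparison held under all alternatives run and with each array left out. With array median scaling the members' median difference was -0.31 at 4 h, -0.37 at 18 h and -0.012 at 24 h. After quantile normalization it was -0.047 at 18 h and 0.015 at 24 h, and in the deposited values -0.039 at 18 h. With slide as a fixed block it was -0.22 at 1.5 h. For time in serum mice the count of 1 was 0 with array median scaling, no filter, the mean of all probes, slide as a fixed or random block, only the groups compared, without the 4 brains low in cerebellum signal, and without slide 4, a choice made after the data were seen. It was 3 with normexp and in the deposited values and 2 with trend and robust eBayes. For time in oleic acid mice the count of 0 was 1 with normexp, 2 in the deposited values and 1 with trend and robust eBayes. Leaving out 1 array at a time gave 0 to 2 members for time in serum and 0 to 1 for time in oleic acid mice, medians of -0.20 to 0.0077 at 4 h and -0.20 to 0.0026 at 24 h. The cause of these shifts was not tested.

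Same-numbered mice did not deviate together (correlations of -0.62 to 0.39). With the replicate block the median was -0.24 at 18 h and 0.12 at 3 h, 1 member passed for time in serum mice, and no call changed. Groups of 2 or 3 brains and the confounding of slide with treatment at 18 h limit these values, and faint probes such as those of Rpl3l, Rpl10l and Rpl39l were close to background.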

Other observations

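Probe distances from the messenger's end were not measured, but 27 members had a probe that held the polyadenylation letters AATAAA or ATTAAA. Their median SD over the 31 arrays was 0.188 and their median 18 h difference was -0.29, with 26 lower. For the other 52 members the values were 0.176 and -0.22, with 52 lower. This split was made after the data were seen and the difference was not tested.

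The members' summed signal took 3.13% to 3.94% of the non-control signal of an array. Across the 31 arrays the members' median was weakly related to the array's 75th percentile intensity on the log2 scale (Pearson's r of -0.22, Spearman's rho of -0.36, and r of -0.21 without the 2 farthest arrays), as a description of arrays that share slides.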
